A study of Rattus norvegicus with 68 samples.

Results

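Cmas, Kpna1 and Ranbp10 are 3 transcripts that stood far below the vehicle control in the blood of rats 24 h after a high dose of acetaminophen, an analgesic that injures the liver when overdosed. They were chosen by their measured log2 ratios at 24 h after 1500 and 2500 mg/kg. All probes that the array's annotation assigns to them were taken, 4 of 22075 probes, and they make up 3 of the 9653 genes measured. Cmas had probes 9343 and 20465, Kpna1 probe 13141 and Ranbp10 probe 6999. The values at 24 h are therefore given as a description without a test, and tests are given only for 6 and 12 h. The choice was made with earlier results of these data known, so the 6 and 12 h values may not be independent of it.

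Blood RNA was taken from male F344/N rats aged 10 to 12 weeks, an inbred strain. Acetaminophen was given by oral gavage, divided into 2 doses for better absorption, at 150, 1500 or 2500 mg/kg in 0.5% ethyl cellulose, and the rats were killed 6, 12 or 24 h later. Each of the 9 combinations of dose and time held 4 rats, except 150 and 1500 mg/kg at 12 h with 3 rats each, 34 rats in all. Every rat was compared on 2 arrays of opposite dye orientation with vehicle RNA of the same time. That control was 1 RNA sample per time, described as a pool of 4 animals at 6 and 12 h and of 6 animals at 24 h. The labels of the 6 and 12 h arrays name a single rat number for it. A value below is the log2 ratio of treated rat to vehicle control, averaged over both arrays of the rat. Errors given as ± are SDs between rats, and the number of rats limits their precision. The ratio was taken as Cy5 over Cy3, which is likely but not stated with the values, and the opposite direction would turn every sign. A ratio holds no level, so that levels cannot be compared between genes and the presence of blood cell markers could not be checked.

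Cmas encodes the synthetase that joins sialic acid to CMP, the activated form that sialyltransferases transfer to glycoproteins and glycolipids. It is unusual among enzymes of sugar nucleotide synthesis in working in the nucleus. Kpna1 encodes an importin alpha, an adaptor that binds nuclear localisation signals and travels with importin beta through the nuclear pore, where the GTPase Ran releases the cargo. Ranbp10 encodes a Ran-binding protein related to Ranbp9, and in human cells it is a subunit of the CTLH ubiquitin ligase. In mice the protein also binds the beta-tubulin of megakaryocytes. Sialic acid covers the surface of red cells and platelets, and blood RNA comes from white cells, platelets and reticulocytes, the young red cells.

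In the GRCr8 assembly, whose coordinates come from RefSeq and not from the array files, Cmas (Entrez 312826) lies at chr4:177449801-177468117, Kpna1 (Entrez 288064) at chr11:78221165-78279778 and Ranbp10 (Entrez 361396) at chr19:50565924-50626720. Because the transcripts moved together across rats, the sequences from 250 bases before to 50 after the start are printed for the 2 of 3 genes with an entry in the RefSeq promoter table of GRCr8. They run 5′ to 3′ in the direction of the gene. That of Cmas covers chr4:177449551-177449850 on the plus strand and that of Ranbp10 covers chr19:50626510-50626809 on the minus strand. Capitals mark the CCAAT box, which is read as ATTGG from its opposite strand, and E-boxes (CANNTG).
Cmas: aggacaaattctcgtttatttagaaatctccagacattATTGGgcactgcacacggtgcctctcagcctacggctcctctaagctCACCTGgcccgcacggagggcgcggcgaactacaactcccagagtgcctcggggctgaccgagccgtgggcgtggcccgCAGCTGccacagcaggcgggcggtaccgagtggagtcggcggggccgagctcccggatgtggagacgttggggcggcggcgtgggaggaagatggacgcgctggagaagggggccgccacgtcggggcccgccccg
Ranbp10: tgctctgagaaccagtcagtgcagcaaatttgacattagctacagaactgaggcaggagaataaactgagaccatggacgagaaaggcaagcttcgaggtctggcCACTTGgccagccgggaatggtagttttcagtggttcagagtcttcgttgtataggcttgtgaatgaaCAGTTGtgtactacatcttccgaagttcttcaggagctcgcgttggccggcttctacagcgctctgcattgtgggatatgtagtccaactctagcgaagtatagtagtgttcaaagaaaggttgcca
The search covered both strands for AGATAA (the core of GATA sites), the box CACCC, the site TGACTCA (shared by AP-1 and NF-E2), the box CCAAT and the E-box CANNTG. The Cmas window, with 67.3% G and C, held 1 CCAAT match at position -212 from the start, on the minus strand relative to the gene. Its E-boxes lay at positions -165 and -86. The Ranbp10 window, with 48% G and C, held E-boxes at -145 and -77 and no CCAAT match. Its positions count from the start in the promoter table, which lies inside the gene span given above. That span reaches 50626720, the end at which a gene of the minus strand begins. Both E-boxes of this window therefore lie within the span. None of the matches overlapped another, and neither window held the letters AGATAA, those of CACCC or those of TGACTCA. Of 33469 windows of this length, 72.1% held CANNTG, 54.9% CACCC, 37.5% CCAAT, 11.6% AGATAA and 4.63% TGACTCA, and the median G and C content was 51.7%. Such matches describe letters only.

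Once turned by dye, both arrays of a rat correlated below 0 over the 12750 probes with 1 annotated gene in 28 of the 34 rats (r between -0.86 and 0.30, median -0.45). The cause was not tested, and the values of both orientations are given for the 4 probes below. In addition, 3 rats need mention. The array of rat 3631 (2500 mg/kg, 24 h) with the treated sample in Cy5 stood apart from the other 11 arrays of its time and orientation, with a lowest correlation of -0.042 over probes, against 0.54 among the arrays without it. Its rat also had the widest spread over genes (SD 0.60). Rat 4137 (2500 mg/kg, 12 h) had the lowest of the turned correlations, and its gene values had an SD of 0.13. The arrays of rat 4128 (150 mg/kg, 12 h) disagreed on 2 of the 4 probes described here, as given below.

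At 24 h Cmas stood at 23.8% of the vehicle after 1500 mg/kg and 28.1% after 2500 mg/kg, while the 150 mg/kg rats scattered around the vehicle. Its log2 ratios in the 4 rats given 150 mg/kg were 0.21, 0.62, -0.41 and -0.10. Those of the 1500 mg/kg rats were -1.94, -1.81, -2.13 and -2.42, and those of the 2500 mg/kg rats were -2.54, -1.60, -1.39 and -1.80. Every rat of the higher doses thus lay below every rat of 150 mg/kg, while both high-dose groups overlapped. The means were 0.083 ± 0.44 after 150 mg/kg, -2.07 ± 0.27 after 1500 mg/kg (4.21-fold lower than vehicle) and -1.83 ± 0.50 after 2500 mg/kg (3.56-fold lower; n = 4 rats each). Only Abi3 had a lower mean of all genes after 1500 mg/kg, and only Abi3 and Ciao2a did after 2500 mg/kg. The SDs of Abi3 were 1.24 and 1.85 and that of Ciao2a was 2.15, wider than those of Cmas.

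Kpna1 followed closely. Its 24 h ratios were 0.075, 0.23, -0.28 and -0.22 in the 150 mg/kg rats. They were -2.02, -2.27, -1.58 and -1.87 in the 1500 mg/kg rats, and -2.10, -1.29, -1.56 and -1.83 in the 2500 mg/kg rats. The separation was the same as for Cmas, with the high-dose rats at -1.29 and lower and no 150 mg/kg rat under -0.28. Group means were -0.049 ± 0.24, -1.94 ± 0.29 and -1.70 ± 0.35 in order of dose (n = 4 rats each), which is 3.83-fold and 3.24-fold lower than vehicle at the higher doses. Kpna1 ranked 3 from the lowest of all genes after 1500 mg/kg and 9 after 2500 mg/kg.

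Ranbp10 was slightly less low. At 24 h it stood at -0.048, -0.14, -0.38 and -0.71 after 150 mg/kg, so that all rats of the lowest dose were below vehicle too. After 1500 mg/kg the ratios were -1.89, -1.48, -1.95 and -1.88. After 2500 mg/kg they split, with rats 3628 and 3631 at -2.05 and -2.02 and rats 3629 and 3630 at -1.17 and -1.11. The means were -0.32 ± 0.30, -1.80 ± 0.22 (3.48-fold lower than vehicle) and -1.59 ± 0.52 (3.00-fold lower) for 150, 1500 and 2500 mg/kg (n = 4 rats each), ranking 5 and 13 from the lowest at the higher doses. Without rat 3631 the means after 2500 mg/kg were -1.84 for Cmas, -1.65 for Kpna1 and -1.44 for Ranbp10.

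At 24 h the share of all genes in which every rat lay below every rat of 150 mg/kg, as in all 3 genes, was 4.01% for 1500 mg/kg and 7.99% for 2500 mg/kg. These are the values that chose the genes, and nothing follows from that count. Against 150 mg/kg the mean differences after 1500 mg/kg were -2.16 for Cmas, -1.89 for Kpna1 and -1.48 for Ranbp10. After 2500 mg/kg they were -1.91, -1.65 and -1.27 for the same genes. The vehicle sample of 24 h cancels in these differences. In all 3 genes the 2500 mg/kg mean was 0.22 to 0.24 above that of 1500 mg/kg, which is less than the SD of the 2500 mg/kg rats.

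**Figure D1:**
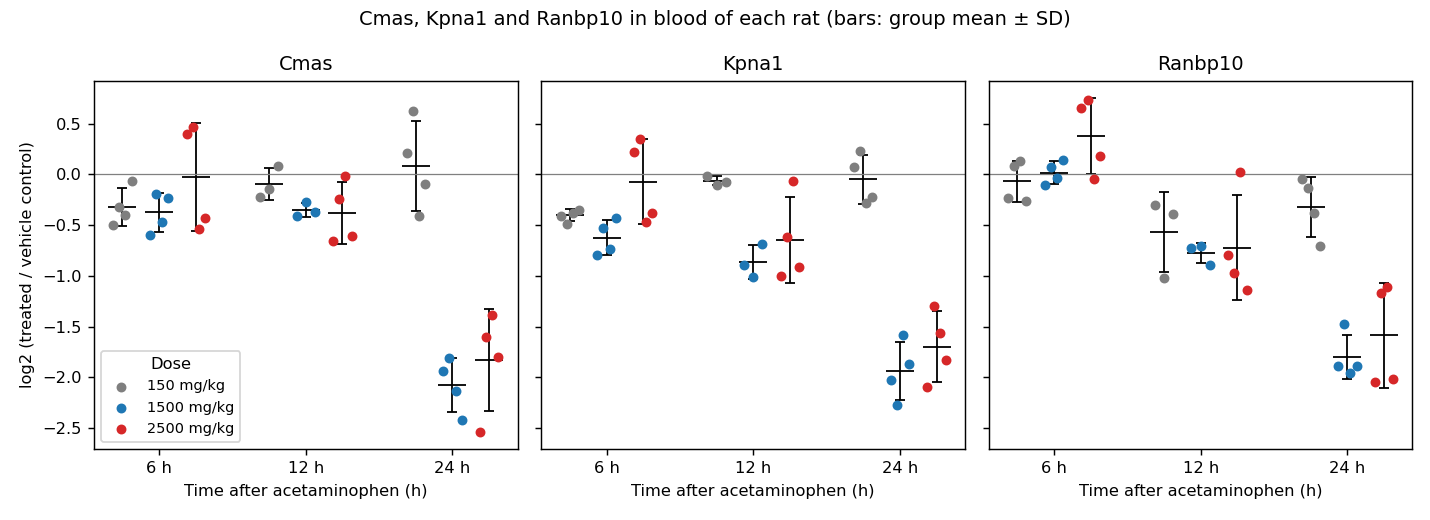
Log2 ratio of treated rat to vehicle control (vertical axis) for Cmas, Kpna1 and Ranbp10 by time after acetaminophen in h, with doses in colour. Points are rats, and bars are the group mean ± SD. The 1500 and 2500 mg/kg rats of 24 h lie between -2.54 and -1.11, and no other rat is under -1.14.

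Cmas passed at neither of the earlier times. At 6 h its means were -0.32 ± 0.18, -0.37 ± 0.19 and -0.025 ± 0.53 after 150, 1500 and 2500 mg/kg (n = 4 rats each). At 12 h they were -0.097 ± 0.16 (n = 3; -0.071 without rat 4128), -0.35 ± 0.071 (n = 3) and -0.38 ± 0.31 (n = 4). By rat, Cmas had -0.50, -0.32, -0.40 and -0.070 at 6 h in the 150 mg/kg group. The 1500 mg/kg rats had -0.60, -0.20, -0.47 and -0.23, and the 2500 mg/kg rats 0.40, 0.47, -0.54 and -0.43. At 12 h the rats had -0.22, -0.15 and 0.082 at the lowest dose, -0.41, -0.28 and -0.37 at the middle dose, and -0.66, -0.24, -0.014 and -0.60 at the highest. The doses overlapped at 6 h, and at 12 h the highest dose overlapped both others. Cmas passed in none of these 6 groups in limma, with adjusted p between 0.153 and 0.974, while 0.932%, 9.24% and 5.18% of all genes fell at 6 h in order of dose and 0.922%, 3.36% and 1.29% at 12 h. Of its 6 groups, 2 had 95% intervals that left out 0, -0.72 to -0.033 at 1500 mg/kg 6 h and -0.72 to -0.038 at 2500 mg/kg 12 h. As a description, the 24 h means minus the 12 h means at 1500 and 2500 mg/kg were -1.72 and -1.45 for Cmas, -1.07 and -1.05 for Kpna1, and -1.03 and -0.86 for Ranbp10. The 24 h means minus the 6 h means were -1.70 and -1.81 for Cmas, -1.31 and -1.62 for Kpna1, and -1.82 and -1.96 for Ranbp10.

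Kpna1 was already lower at 6 h after 1500 mg/kg. The 4 rats had -0.80, -0.52, -0.74 and -0.43, all under the vehicle, and the mean of -0.62 (SE 0.14) passed (limma adjusted p = 0.00257). Of all genes, 9.24% fell by this test in the same comparison, and of the 3 described genes Kpna1 alone did. At 12 h after 1500 mg/kg the 3 rats had -0.89, -1.01 and -0.69, with a mean of -0.86 (SE 0.16; adjusted p = 0.00202). The 3 rats given 150 mg/kg had -0.016, -0.11 and -0.072 at that time, well apart from the 1500 mg/kg rats. At 12 h after 2500 mg/kg the rats had -1.004, -0.61, -0.061 and -0.91, with a mean of -0.65 (SE 0.14; adjusted p = 0.0231). At 6 h after 2500 mg/kg, rats 3595 and 3596 lay above the vehicle at 0.22 and 0.35 and the other rats below it at -0.47 and -0.38 (mean -0.072, SE 0.14, adjusted p = 0.865). After 150 mg/kg at 6 h the 4 rats stood close together at -0.41, -0.48, -0.38 and -0.35, a mean of -0.40 that did not pass (adjusted p = 0.133).

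Ranbp10 passed in no group at 6 h and fell at 12 h after both higher doses. At 6 h its rats had -0.23, 0.081, 0.13 and -0.26 after 150 mg/kg and -0.11, 0.076, -0.037 and 0.14 after 1500 mg/kg, on both sides of the vehicle. After 2500 mg/kg at 6 h they had 0.65, 0.73, -0.044 and 0.18 (mean 0.38, SE 0.17, adjusted p = 0.182). At 12 h the 1500 mg/kg rats stood at -0.73, -0.71 and -0.89, with a mean of -0.78 (SE 0.19; adjusted p = 0.0205). The 2500 mg/kg rats stood at -0.80, -0.97, 0.021 and -1.14, with a mean of -0.72 (SE 0.17; adjusted p = 0.0273). After 150 mg/kg at 12 h the rats had -0.30, -1.02 and -0.39, a mean of -0.57 that did not pass (adjusted p = 0.124), and -0.35 without rat 4128. Rat 4128, at -1.02, lay below every 1500 mg/kg rat, and the other rats of the group lay above them all.

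At 12 h, then, 2 of the 3 genes fell after 1500 mg/kg, against 3.36% of all genes, and the same 2 after 2500 mg/kg, against 1.29% of all genes (limma, Benjamini-Hochberg adjusted p under 0.05). Rat 4137 was close to the vehicle in all 3 genes. Without it the 12 h means after 2500 mg/kg were -0.84 for Kpna1 (adjusted p = 0.00104), -0.97 for Ranbp10 (adjusted p = 0.00121) and -0.50 for Cmas (adjusted p = 0.13). Without any one of the other rats of that group, the calls of Kpna1 and Ranbp10 at 2500 mg/kg were lost (adjusted p 0.11 to 0.433 without rats 4135, 4136 or 4138). The call of Ranbp10 at 1500 mg/kg was lost without any of its 3 rats (adjusted p 0.0575 to 0.0975). The calls of Kpna1 at 1500 mg/kg, at 6 and at 12 h, stood without any one rat of the study (adjusted p at most 0.0289). A test against vehicle leaves out the spread of the control itself. When the standard errors were widened for a control pool of 4 animals, none of these 5 calls remained (adjusted p between 0.0694 and 0.722).

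Blood cell markers also moved at these times. At 6 h after 1500 mg/kg, where Kpna1 fell, lower calls were held by 6 of 15 T cell, 4 of 6 B cell, 2 of 8 NK cell, 2 of 12 monocyte, 1 of 8 platelet and 0 of 19 erythroid markers. In that comparison 9.24% of all genes fell. Higher calls were held by 4 of 12 neutrophil and 3 monocyte markers, where 3.48% of all genes rose. At 12 h after 1500 mg/kg 6 of 8 platelet markers fell, with medians by rat between -1.25 and -0.38, along with 5 T cell, 3 erythroid and 1 B cell markers. In the same comparison 2 neutrophil and 2 monocyte markers rose, where 1.48% of all genes did. At 12 h after 2500 mg/kg 6 T cell, 1 erythroid, 1 NK cell and 0 platelet markers fell. At this time 3.36% and 1.29% of all genes fell after 1500 and 2500 mg/kg. With the control pool widened, 5 platelet markers fell at 12 h after 1500 mg/kg and no other marker was called at 12 h after either dose. At 6 h after 1500 mg/kg the same widening left 3 T cell, 2 B cell, 1 monocyte, 0 NK cell and 0 platelet markers lower. It left 1 neutrophil and 1 monocyte marker higher. The part of these cell types in the early values of the 3 genes was not tested.

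The change over time was tested as 12 h minus 6 h at each dose. Ranbp10 fell by 1.10 on the log2 scale between these times at 2500 mg/kg (SE 0.23, limma adjusted p = 0.0193), with rats between -1.14 and 0.021 at 12 h and between -0.044 and 0.73 at 6 h. Of all genes, 0.3% fell in this comparison, 0.342% at 1500 mg/kg and 0% at 150 mg/kg. The call was lost without rat 3595, 3596, 4135, 4136 or 4138 (adjusted p 0.064 to 0.119), and after widening for the controls of both times (adjusted p = 0.716). At 1500 mg/kg the change of Ranbp10 was -0.79 (SE 0.25), which did not pass (adjusted p = 0.156). Kpna1 had -0.57 (SE 0.19) at 2500 mg/kg, adjusted p = 0.222, or -0.77 with 0.0405 without rat 4137. Cmas had -0.36 (SE 0.24) and 0.021 (SE 0.25) at 2500 and 1500 mg/kg.

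Between doses at 6 or 12 h, where the vehicle sample cancels, none of the 18 tests of the 3 genes over 6 pairs of doses passed in limma, and 3 had an unadjusted p under 0.05, all of them of Kpna1. The comparison of 1500 with 150 mg/kg at 12 h gave -0.80 (95% interval -1.26 to -0.34, adjusted p = 0.226), with every 1500 mg/kg rat below every 150 mg/kg rat, an arrangement that 6.47% of all genes had. The comparison of 2500 with 150 mg/kg at 12 h gave -0.58 (-1.01 to -0.15, adjusted p = 0.861), and that of 2500 with 1500 mg/kg at 6 h gave 0.55 (0.15 to 0.95, adjusted p = 1). For the 3 pairs of doses at 12 h 0 of 9653 genes passed, while 529 to 665 had an unadjusted p under 0.05. At 6 h 0.0414% and 0.145% of all genes passed for 1500 and 2500 mg/kg against 150 mg/kg. Intervals of the others were wide, such as -0.55 to 0.50 for Cmas between 2500 and 1500 mg/kg at 12 h. Ranbp10, which fell against vehicle at 12 h after both higher doses, differed little from 150 mg/kg at that time. Its differences were -0.21 (95% interval -0.76 to 0.35) for 1500 mg/kg and -0.15 (-0.67 to 0.37) for 2500 mg/kg.

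Ordered from the lowest mean, each gene began with 1500 mg/kg at 24 h and then 2500 mg/kg at 24 h, and the rats of these neighbours overlapped. The next group was 2500 mg/kg at 12 h for Cmas and 1500 mg/kg at 12 h for Kpna1 and Ranbp10, and this was the only step in the order of each gene at which neighbouring groups did not overlap. From there to the highest group, neighbours overlapped in every case. Groups that were not neighbours could overlap across that step. In Ranbp10, rat 4138 of 2500 mg/kg at 12 h (-1.14) lay below rat 3630 of 2500 mg/kg at 24 h (-1.11). The highest mean was that of 150 mg/kg at 24 h for Cmas and Kpna1, and that of 2500 mg/kg at 6 h for Ranbp10.

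Each value rests on arrays of both dye orientations, and the probes differed between them, mostly in 1 direction for each probe. The ratio with the treated sample in Cy5 exceeded that with it in Cy3 by 0.48 ± 0.31 for Cmas probe 9343 (33 of 34 rats) and by 0.50 ± 0.44 for the Kpna1 probe (32 of 34). It was smaller, by -0.53 ± 0.55 for Cmas probe 20465 and by -0.36 ± 0.31 for the Ranbp10 probe, and was larger in 4 of 34 rats for that Cmas probe and in 0 of 34 for Ranbp10. An effect of the dye that is equal on both arrays of a rat cancels in its mean. Whether it was equal was not tested, and the gap differed between groups. For Kpna1 the Cy5 and Cy3 means were -0.59 and -0.65 at 6 h after 1500 mg/kg. At 12 h they were -0.46 and -1.26 after 1500 mg/kg, and -0.18 and -1.11 after 2500 mg/kg. After 1500 or 2500 mg/kg at 24 h, single arrays ran from -3.06 to -0.91 over the 4 probes. At 150 mg/kg they ran from -0.88 to 1.14. In rat 4128 the arrays with the treated sample in Cy5 and in Cy3 gave -1.68 and 1.11 for Cmas probe 20465, and -1.77 and -0.27 for Ranbp10. None of the 272 array values of the 4 probes was exactly 0 or at the limit of the scale.

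**Figure D2:**
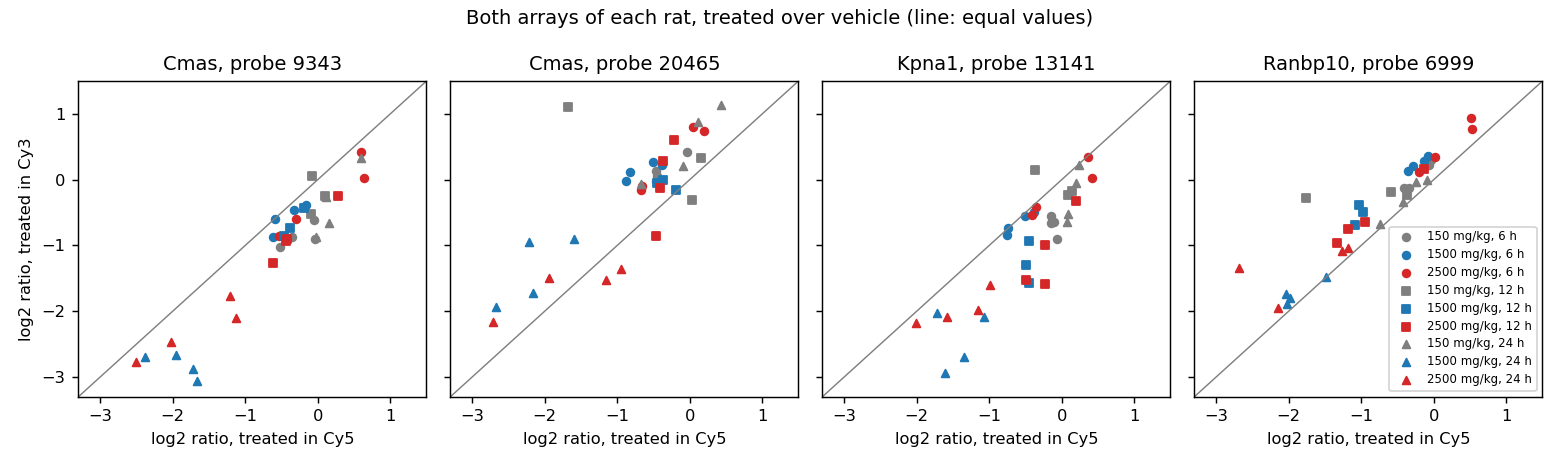
Log2 ratio of treated rat to vehicle with the treated sample in Cy5 (horizontal axis) and in Cy3 (vertical axis) for each of the 4 probes. Each point is a rat, colours are doses, symbols are times and the line marks equal values. High-dose rats of 24 h (triangles) are low on both axes for every probe, and each probe's points lie mostly on one side of the line.

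The probes of Cmas differed in size more than in pattern. At 24 h probe 9343 stood at -2.38 ± 0.11 and -1.999 ± 0.54 after 1500 and 2500 mg/kg, and probe 20465 at -1.77 ± 0.46 and -1.66 ± 0.56 (n = 4 rats each). Across the 34 rats the deviations from the group means of both probes correlated at r = 0.67, as a description, since both were read on the same arrays. At 12 h probe 9343 had -0.51 and -0.57 after 1500 and 2500 mg/kg (adjusted p over all probes 0.17 and 0.127), against -0.20 and -0.19 for probe 20465.

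Rats that were low in one gene were mostly low in the others. Deviations from the group mean correlated over the 34 rats at r = 0.71 for Cmas and Kpna1, 0.67 for Cmas and Ranbp10 and 0.64 for Kpna1 and Ranbp10. Over the 22 rats of 6 and 12 h the deviations of these pairs correlated at 0.86, 0.64 and 0.74. Over the 12 rats of 24 h the correlations were 0.54, 0.71 and 0.49, lower for both pairs with Kpna1. The rats 3595 and 3596, above the vehicle in Kpna1 at 6 h, had 0.40 and 0.47 in Cmas, and 0.65 and 0.73 in Ranbp10. These correlations share the arrays, the RNA sample of each rat and the vehicle sample of each time, and are no test.

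In the sialic acid pathway, from Gne, the first enzyme of sialic acid synthesis, to the sialyltransferases and sialidases, 26 of 34 listed genes other than Cmas were measured. After 1500 mg/kg at 24 h, 1 rose and 2 fell, and after 2500 mg/kg 2 rose and 2 fell (limma against vehicle, where 5.74% and 15.6% of all genes fell and 2.34% and 10.9% rose). The medians of the list were 0.0018 and -0.060, beside 0.0079 and -0.0024 over all genes. St3gal5, which makes the ganglioside GM3 from CMP-sialic acid, fell to -0.55 ± 0.068 and -0.48 ± 0.16 at the 2 doses (adjusted p = 1.43e-07 and 9.46e-07). At 6 h after 2500 mg/kg it had risen by 0.22 (adjusted p = 0.0147), where 2.54% of all genes rose. That call was lost without rat 3595 or 3596 and with the control pool widened (0.254). St3gal6 fell to -0.41 after 1500 mg/kg (adjusted p = 0.0341), a call lost without rat 3623 (-0.088) or 3624, and St3gal1 to -0.15 after 2500 mg/kg (0.00477), lost without rat 3631 (-0.063). Higher were St6galnac6 at 0.30 after 1500 mg/kg (0.00694; 0.19 and lost without rat 3623), and St6galnac4 at 0.22 (0.00914; 0.085 and lost without rat 3631) and St8sia5 at 0.34 (0.00529) after 2500 mg/kg. Gne stood at -0.13 and -0.11, which did not pass. Slc35a1, the Golgi carrier of CMP-sialic acid, did not pass either, at -0.53 ± 0.83 and -0.90 ± 2.17. Its 2500 mg/kg rats had 0.0030, 0.48, 0.049 and -4.15, the last being rat 3631, and their mean was 0.18 without it. Without rat 3624 its mean after 1500 mg/kg was -0.20.

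Of 26 listed importins and exportins other than Kpna1, 16 were measured. After 1500 mg/kg at 24 h 0 rose and 2 fell, and after 2500 mg/kg 1 rose and 3 fell (1 fell without rat 3631), with medians of -0.019 and -0.036. In these comparisons 5.74% and 15.6% of all genes fell and 2.34% and 10.9% rose. Among the importin alphas, Kpna2 stood at -0.28 and -0.33 (adjusted p = 0.121 and 0.0239) and Kpna3 at -0.056 and -0.083. Kpna4 stood at 0.076 and 0.16 (0.535 and 0.0464), and Kpna6 at -0.025 and -0.13. The call of Kpna2 was lost without rat 3630 (-0.21) or 3631, and that of Kpna4 without any of 22 of the 34 rats (0.066 without rat 3631). Kpnb1, the importin beta, stood at -0.11 and -0.064 and did not pass. Tnpo3, a transportin, fell to -0.44 and -0.39 (adjusted p = 0.0481 and 0.0398), where the call at 1500 mg/kg was lost without any of 23 of the 34 rats (-0.26 without rat 3624) and that at 2500 mg/kg without rat 3630 or 3631. Xpo7, an exportin that in mice exports histones from maturing erythroblasts and also stands in the erythroid list below, fell to -0.18 ± 0.043 and -0.25 ± 0.074 (0.00221 and 2.41e-05).

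Of 5 measured genes of the Ran cycle, 0 changed after 1500 mg/kg at 24 h, and 1 rose after 2500 mg/kg, Ranbp1 at 0.37 (adjusted p = 0.00789), a call lost without rat 3631 (0.11). Ran itself stood at -0.21 and -0.32 (0.407 and 0.0741). At 6 h after 1500 mg/kg 1 of the 5 fell, Ran, to -0.52 (adjusted p = 0.00932), a call lost without rat 3591 (0.0782) and with the control pool widened (0.162). Of 19 measured nucleoporins, 2 passed as lower and 0 as higher in the 1500 mg/kg rats of 24 h, against 4 and 1 in those of 2500 mg/kg. The shares of all genes at 24 h were 5.74% lower and 2.34% higher after 1500 mg/kg, and 15.6% and 10.9% after 2500 mg/kg. Nup210, a membrane protein of the nuclear pore, fell to -0.60 ± 0.11 and -0.55 ± 0.078 (adjusted p = 3.14e-08 and 9.14e-08), and to -0.28 at 12 h after 2500 mg/kg (0.0163). The 12 h call was lost without rat 4135, 4136 or 4138 (0.108 to 0.367) and with the control pool widened (0.722). Sec13, shared by the pore and by COPII vesicles, fell to -0.28 and -0.37 (0.00615 and 0.000176), where the call at 1500 mg/kg was lost without rat 3626. Nup188 fell to -0.28 after 2500 mg/kg (0.0112; lost without rat 3629 or 3630) and Nup88 to -0.50 (0.0322; lost without rat 3628, 3629 or 3630). Aaas was higher at 0.22 (0.0434; lost without rat 3630 or 3631, 0.058 without rat 3631).

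In the CTLH ligase, 6 of 11 listed genes other than Ranbp10 were measured, and Ranbp9 was not analysed here. After 1500 mg/kg at 24 h 0 rose and 1 fell, and after 2500 mg/kg 1 rose and 1 fell (2 fell without rat 3631). Beside these counts, 5.74% and 15.6% of all genes fell and 2.34% and 10.9% rose. Wdr26, a subunit, fell to -0.73 ± 0.23 and -0.46 ± 0.19 at 24 h after 1500 and 2500 mg/kg (adjusted p = 2.57e-05 and 0.00252). At 6 h after 2500 mg/kg it had risen by 0.52 (adjusted p = 0.00229), where Ranbp10 stood at 0.38 without passing. Rats 3595 and 3596 had 0.74 and 1.02 in Wdr26 and the other rats 0.18 and 0.15. The call stood without any one rat of that group (adjusted p at most 0.0398) and was lost with the control pool widened (0.0975). Mkln1, also a subunit, rose by 0.14 after 2500 mg/kg at 24 h (0.00383), with rats at 0.084, 0.019, 0.054 and, for rat 3631, 0.40, and by 0.052 without that rat (0.0342). Maea, the RING subunit that acts in the ligase, stood at -0.29 and -0.27 (0.14 and 0.0859), and Armc8, a scaffold subunit, at 0.015 and 0.060. When the standard errors were widened for the 24 h control pool of 6 animals, St3gal5, Xpo7, Nup210 and Wdr26 kept their calls at both doses and Sec13, St3gal1 and Mkln1 theirs at 2500 mg/kg. The other 24 h calls of these 5 lists were lost.

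**Figure D3:**
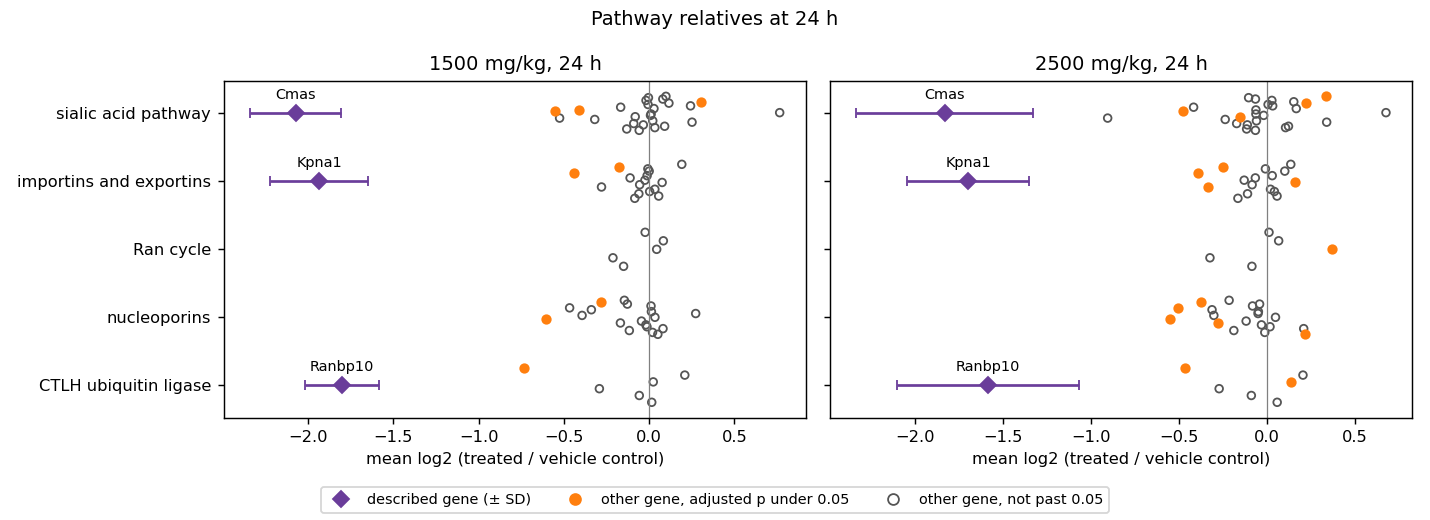
Mean log2 ratio of treated rats to vehicle at 24 h (horizontal axis) for genes of 5 lists, after 1500 mg/kg (left panel) and 2500 mg/kg (right panel). Circles are the other genes of each list, filled where limma's adjusted p was under 0.05, and diamonds are the 3 described genes with their SD. Cmas, Kpna1 and Ranbp10 lie between -2.07 and -1.59, and the lowest other gene with a call, Wdr26 after 1500 mg/kg, at -0.73. The open circle of Slc35a1 at -0.90 after 2500 mg/kg would stand at 0.18 without rat 3631.

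Some other genes had patterns very like the 3. Likeness was Pearson's r of the log2 ratios over the 34 rats, in which the 8 high-dose rats of 24 h weigh heavily, so that the r of deviations from group means is given after it. For Cmas the most alike was Memo1 (r = 0.96, and 0.83 within groups), followed by Mkrn1, a ubiquitin ligase (0.95 and 0.78), Eef1e1, which binds the tRNA synthetase complex (0.94 and 0.69), the protease Furin (0.94 and 0.79) and the glutathione peroxidase Gpx1 (0.94 and 0.80). For Kpna1 they were Rmdn3, a mitochondrial outer membrane protein (0.95 and 0.80), the mitochondrial NAD kinase Nadk2 (0.93 and 0.76), the haem-regulated kinase Eif2ak1 (0.93 and 0.76), Nup210 (0.92 and 0.61) and the mitochondrial carrier Sfxn3 (0.92 and 0.70). For Ranbp10 they were Rbm38, an RNA-binding protein (0.96 and 0.90), the protease cathepsin D, Ctsd (0.95 and 0.79), the nucleotide kinase Cmpk2 (0.94 and 0.86), St3gal5 (0.93 and 0.70) and Ccndbp1 (0.93 and 0.78). By the mean of the 3 correlations, St3gal5, Rmdn3 and Gpx1 led (0.92, 0.92 and 0.91), before Eef1e1, Dnajb6, Riok3, Memo1, Nadk2, Mkrn1 and Gda (0.91 to 0.89). Of these, Gpx1 had the lowest mean ratios at 24 h, -1.82 ± 0.31 and -1.83 ± 0.62 after 1500 and 2500 mg/kg, close to the 3 genes, and Cmpk2 among the smallest at -0.45 ± 0.088 and -0.58 ± 0.20.

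Markers of blood cell types moved at the same doses and time. By limma against vehicle, the 1500 mg/kg rats of 24 h had 11 lower and 0 higher calls among 19 measured erythroid markers, and the 2500 mg/kg rats had 11 lower and 2 higher. Over all genes, lower calls were 5.74% and 15.6% and higher calls 2.34% and 10.9% in order of dose. Bpgm, which makes the 2,3-bisphosphoglycerate of red cells, fell to -1.25 ± 0.35 and -1.62 ± 0.31. Bnip3l, a receptor for mitophagy in reticulocytes, fell to -1.14 ± 0.29 and -0.91 ± 0.36, and Epb42, an ankyrin-binding erythrocyte protein, to -0.62 ± 0.22 and -0.86 ± 0.45. Nfe2, which drives genes of the erythroid and megakaryocyte lines, fell to -0.49 ± 0.28 (lost without rat 3623 or 3626) and -1.09 ± 0.51. Alas2, the first enzyme of haem synthesis, and the red cell ankyrin Ank1 were the genes of the list above the vehicle with a call after 2500 mg/kg, at 0.60 and 0.61, and neither call held without rat 3631 (0.31 and 0.22). Cmas and Kpna1 had lower means than every gene of this list at both doses, and Ranbp10 did so after 1500 mg/kg. In bulk blood, fewer cells of a type and less RNA per cell cannot be told apart.

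By rat, the median of the erythroid list at 24 h ran from -0.089 to 0.058 after 150 mg/kg, from -0.45 to -0.27 after 1500 mg/kg and from -0.63 to -0.12 after 2500 mg/kg. At the earlier times its highest values were those of rats 3595 and 3596 (0.16 and 0.20), which were also the highest of 6 and 12 h in each of the 3 genes. In rat 4137 it was 0.0053. Deviations from group means of this median correlated over the 34 rats with those of Cmas at r = 0.65, Kpna1 at 0.66 and Ranbp10 at 0.82. With the medians of 6 other cell type lists the correlations lay between -0.36 and 0.50, highest for the 8 NK cell markers. Over the 22 rats of 6 and 12 h the ratios themselves were correlated, not their deviations, so that differences between groups enter. The erythroid correlations were then 0.77, 0.77 and 0.85 for Cmas, Kpna1 and Ranbp10. Those of the other lists ran from -0.69, for the monocyte list and Kpna1, to 0.57, for the NK cell list and Cmas. All of these share the arrays and the vehicle samples.

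For the other marker lists, the shares of all genes to set beside the counts at 24 h are the same. They were 5.74% and 15.6% lower and 2.34% and 10.9% higher after 1500 and 2500 mg/kg. Of 8 platelet markers, 0 changed after 1500 mg/kg at 24 h and 7 fell after 2500 mg/kg. By rat their median ran from -0.37 to -0.013 and from -1.10 to -0.56 at these doses. Of 12 neutrophil markers, 6 rose and 0 fell at each dose, led by the calprotectin subunit S100a9 at 3.38 ± 0.85 and 3.08 ± 1.40. Of 15 T cell markers, 0 rose and 8 fell after 1500 mg/kg (2 without rat 3623, 4 without rat 3624), and 1 rose and 9 fell after 2500 mg/kg. Of 6 B cell markers 0 rose and 4 fell at each dose. Of 12 monocyte markers, 2 rose and 1 fell after 1500 mg/kg, and 3 rose and 3 fell after 2500 mg/kg (1 without rat 3631). Of 8 NK cell markers 0 passed, with medians by rat between -0.14 and 0.13 after 1500 mg/kg and between -0.11 and 0.013 after 2500 mg/kg. With the control pool widened, lower calls after 1500 mg/kg remained for 9 erythroid, 3 T cell, 3 B cell and 1 monocyte markers. After 2500 mg/kg they remained for 10 erythroid, 6 platelet, 9 T cell, 1 B cell and 1 monocyte markers. Higher calls remained for 6 neutrophil and 2 monocyte markers at each dose, and for 0 erythroid and 0 T cell markers. A fit on the 24 h rats alone also lowered counts, and only some of its counts are given here. In it 7 erythroid, 4 T cell and 2 B cell markers fell after 1500 mg/kg, and 0 B cell and 1 monocyte markers after 2500 mg/kg. Erythroid, platelet and T cell markers with lower calls after 2500 mg/kg were also left, without a count here. The part of any cell type in the values of Cmas, Kpna1 and Ranbp10 was not tested.

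**Figure D4:**
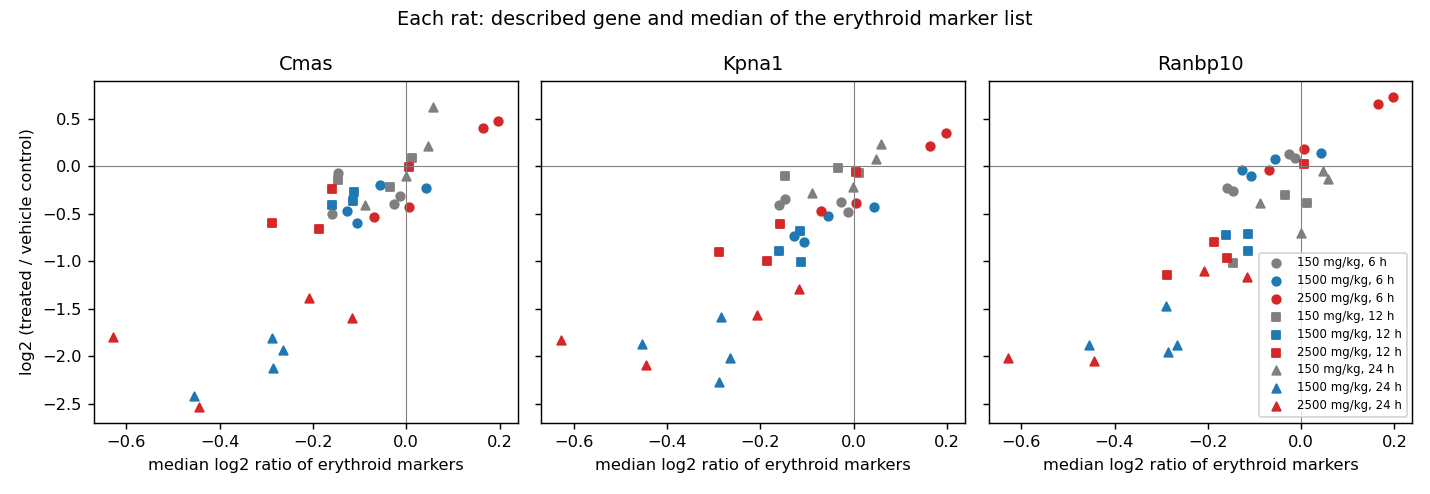
Each rat's log2 ratio of treated to vehicle for the described gene (vertical axis) against its median log2 ratio over 19 erythroid markers (horizontal axis). Colours are doses and symbols are times, and the high-dose rats of 24 h (triangles) lie at the lower left. Rats 3595 and 3596, at 0.16 and 0.20 on the horizontal axis, have the highest ratios of Ranbp10, 0.65 and 0.73.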

How the data were processed

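The deposited values were log10 ratios of the dyes for each probe of 68 2-colour arrays, processed by the authors and limited to ±2. The authors' scanner settings and normalization are not given in these sources. Ratios were turned by dye so that the treated rat stood over the vehicle, converted to log2, averaged over both arrays of a rat and over the probes of a gene. Of 22075 probes, 12750 had 1 gene in the platform annotation, 5 several and 9320 none, and 12720 were matched to GRCr8 symbols, giving 9653 genes. A fit over the 9 groups with limma 3.58.1 in R 4.3.3, with the package data.table, version 1.17.8, gave p-values adjusted by Benjamini-Hochberg over all genes, with 0.05 as the threshold. It covered 15 comparisons of the 3 genes, 45 tests in all, and was tested on simulated data. These held independent noise for each gene and rat, without a shared vehicle sample or a dye effect, so errors from those 2 sources were not covered. Members and lists were chosen with earlier results of these data known. Named beside them were up to 4 genes of each list with the smallest adjusted p at 24 h, relatives closest in family, and the genes most alike over the rats. Other list genes that passed or stand near the members in their pathway were named after their values were seen. Alternatives were other scalings, single dyes and probes, a wider error for the control, and leaving out each rat.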

Additional observations from a re-analysis of the deposited data

Results flagged for a closer look

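Ranbp10 in rat 3624, given 1500 mg/kg and killed at 24 h, stood at -1.48, apart from the other rats of its group at -1.95 to -1.88. The gap was 0.855 of the group's whole range, above Dixon's critical value for 4 samples. The 3 genes gave 21 groups of 4 rats to check, and chance alone flags some such groups at a 95% critical value. In the same rat Cmas stood at -1.81, the highest of its group, and Kpna1 at -2.27, the lowest of its group. The median of its erythroid markers was -0.29.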

How the results depend on the processing

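No value of Cmas, Kpna1 or Ranbp10 with a call reversed under any alternative run. Subtracting array medians, treating zeros and limit values as missing, a robust prior, and probes 13141 and 6999 fitted among all probes changed no call. At 24 h after 1500 mg/kg, Cmas was -2.38 by probe 9343 and -1.77 by probe 20465. With arrays scaled to a common spread, that group had -1.61 for Kpna1 and -1.57 for Ranbp10. Scaling also ended the 12 h calls after 1500 and 2500 mg/kg, of Kpna1 (-0.67 and -0.48, limma adjusted p = 0.0781 and 0.288) and Ranbp10 (-0.70 and -0.55, 0.0976 and 0.279), and that of Ranbp10 between 6 and 12 h (-0.99, 0.0575). With only the arrays that had the treated rat in Cy5, Kpna1 was -0.18 at 2500 mg/kg 12 h (0.318) and -1.43 at 1500 mg/kg 24 h, the 12 h minus 6 h change of Ranbp10 was -1.12 (0.0528), and calls were gained for Cmas at 1500 mg/kg 6 h (-0.53, 0.048) and Ranbp10 at 150 mg/kg 12 h (-0.91, 0.0138). With only those in Cy3, Kpna1 was -2.44 at 1500 mg/kg 24 h, and calls were gained for Kpna1 at 150 mg/kg 6 h (-0.69, 0.00232), between 1500 and 150 mg/kg at 12 h (-1.18, 0.0298) and between 12 and 6 h at 2500 mg/kg (-0.96, 0.0173), and for Ranbp10 at 2500 mg/kg 6 h (0.54, 0.00917) and between 12 and 6 h at 1500 mg/kg (-0.77, 0.0296). Fitted on rats of the same time alone, the 12 h calls of Kpna1 at 2500 mg/kg (-0.65, 0.15) and of Ranbp10 at 1500 and 2500 mg/kg (-0.78 and -0.72, 0.0796 and 0.15) were lost. Widening the errors for a control pool ended all 6 calls, with the values kept by construction: Kpna1 -0.62 at 6 h (0.0819), -0.86 and -0.65 at 12 h (0.0694 and 0.722), and Ranbp10 -0.78 and -0.72 at 12 h (0.258 and 0.722) and -1.10 between the times (0.716). For a control of 1 animal all 6 had an adjusted p of 1. The cause was not tested for scaling and dye. Leaving out each rat, values ran for Kpna1 from -0.69 to -0.56 at 1500 mg/kg 6 h, from -0.95 to -0.79 at 1500 mg/kg 12 h, from -0.84 to -0.53 at 2500 mg/kg 12 h and from -0.77 to -0.43 for its 12 h minus 6 h change at 2500 mg/kg. For Ranbp10 they ran from -0.81 to -0.72 and from -0.97 to -0.58 at 12 h after 1500 and 2500 mg/kg, and from -1.35 to -0.96 for the change. Of 1836 such values 14 lost a call and 1 gained one, but most had no call to lose, and those of 24 h were not tested. The losses were 3 for Kpna1 at 2500 mg/kg 12 h, 3 each for Ranbp10 at 1500 and 2500 mg/kg 12 h, and 5 for the change of Ranbp10 at 2500 mg/kg. With a widened control pool, 1 sialic acid gene, 1 transport factor, 1 nucleoporin and 1 CTLH gene fell after 1500 mg/kg at 24 h. So did 9 erythroid, 3 T cell, 3 B cell and 1 monocyte markers, while 6 neutrophil and 2 monocyte markers rose. After 2500 mg/kg 2 sialic acid genes, 1 transport factor, 2 nucleoporins and 1 CTLH gene fell. So did 10 erythroid, 6 platelet, 9 T cell, 1 B cell and 1 monocyte markers. At that dose 0 sialic acid, transport, Ran cycle, nucleoporin, erythroid or T cell genes rose, while 1 CTLH gene, 6 neutrophil and 2 monocyte markers did. For a control of 1 animal, 1 erythroid call after 2500 mg/kg remained among all lists at 24 h. No paired analysis was possible because rat numbers are not shared between groups.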
